A study of Mus musculus with 6 samples.

Results

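Cadherins and non-clustered protocadherins are membrane proteins with calcium-binding extracellular repeats. The genes were chosen by symbol: every Cdh and Pcdh gene with a plain number except Cdh5, together with Celsr1 to Celsr3, the Fat genes and the Dchs genes. This gave 41 symbols under 42 gene identifiers, of 37991 genes in the deposited tables, on 14 chromosomes. RNA was measured by RNA-seq in bulk dorsal telencephalon of CD1 mouse embryos at E13.5, taken in front of the hippocampus as formalin-fixed coronal cryosections. The 3 FGF2 embryos (numbered 6, 7 and 8) had received 100 ng of FGF2 in the ventricles of the brain, and the 3 vehicle embryos (7, 8 and 9) PBS with 0.1% BSA. No genotype is given for either group, and neither is the interval between injection and collection.

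Classical cadherins hold cells together. Their extracellular repeats bind cadherins on the neighbouring cell, and their cytoplasmic tails bind catenins, which link them to actin. N-cadherin (Cdh2) forms the apical junctions of the neuroepithelium, and the type II cadherins are expressed in patches that mark regions and layers of the developing forebrain. Celsr proteins carry cadherin repeats on a multipass receptor and act in planar cell polarity with Vangl and Frizzled proteins, while Fat and Dachsous proteins are very large cadherins that bind each other across cells. Delta-protocadherins are single-pass proteins of weaker adhesion, with roles in cell sorting and axon growth.

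Of the 42 identifiers, 37 passed the filter on low counts. In the FGF2 embryos, the atypical cadherins Celsr1 and Celsr2 fell to about 0.51 and 0.75 times the vehicle level, and the type II cadherin Cdh22 rose 3.08-fold. The other 34 tested identifiers did not pass an adjusted p of 0.05 in edgeR's quasi-likelihood test. The share called was 8.11%, against 3.63% of all 21983 genes tested. Called higher was 1 of 37 (2.7%), against 2.68% of all genes, and called lower 2 of 37 (5.41%), against 0.951% of all genes. An unadjusted p under 0.05 was found for 11 of the 37 (29.7%), 5 higher and 6 lower, against 19.3% of all genes. The median log2 fold change was -0.05 over the 37 and 0.01 over all genes.

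No overlap between the FGF2 and the vehicle values was seen for 12 of the 37 identifiers (32.4%), against 28.2% of all genes tested. The FGF2 embryos were the higher group in 4, Cdh22, Cdh9, Pcdh1 and Pcdh8 (10.8%, against 14.6% of all genes). They were the lower group in 8, Celsr1, Celsr2, Dchs1, Fat1, Pcdh7, Cdh2, Cdh3 and Cdh4 (21.6%, against 13.6%). RPKM, a read count scaled for gene model length and for library size, gave 10 of 27 genes without overlap and lower in FGF2 embryos (37%, against 12% of all 13894 genes above the same RPKM minimum) and 4 without overlap and higher (14.8%, against 16.6%). Which genes these were differed in part between the measures. Cdh6, Fat3 and Fat4 were lower without overlap in RPKM alone and Cdh7 higher, whereas Pcdh7 was lower without overlap in the whole-span counts alone.

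**Figure D1:**
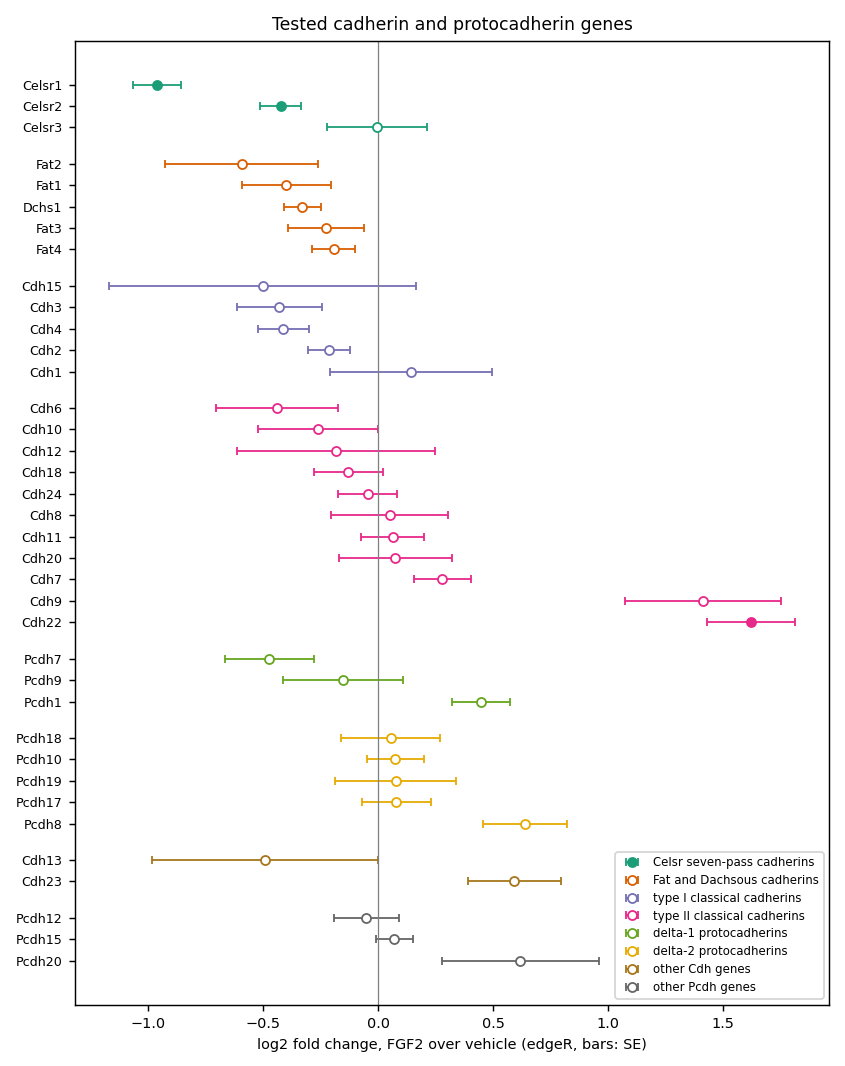
Log2 fold change, FGF2 over vehicle, of the 37 tested identifiers on the horizontal axis with its standard error as a bar, grouped by family on the vertical axis. Filled points passed an adjusted p of 0.05, which were Celsr1 and Celsr2 at -0.96 and -0.42 and Cdh22 at 1.62, and open points did not.

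Several facts of the libraries touch these results. Total counts were 64631136 to 81532334 in the FGF2 embryos and 61489462 to 68101511 in the vehicle embryos, and in vehicle 9 every count was even. Y-linked genes had 10475 to 16232 reads in all 3 FGF2 embryos and in vehicle 7, but 22 reads each in vehicle 8 and vehicle 9, which instead had 58349 and 57904 reads of Xist, so embryo sex was unequal between the groups. With sex as a covariate, 5 genes were called in the whole table (0.0227%) and none of the 37 was, while 9 of the 37 had an unadjusted p under 0.05 (24.3%, against 8.58% of all genes in that fit). In that fit the FGF2 effect is set against vehicle 7 alone, the only vehicle embryo with Y-linked reads. The calls lost there thus cannot be assigned to sex rather than to the smaller comparison. FGF2 8 stood apart from FGF2 6 and 7 in many of the cadherin genes, as described after the families. The samples are bulk tissue, so fewer cells of a type and less RNA per cell cannot be told apart.

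Markers of neighbouring tissues also moved with the groups. The summed level of 18 ventral telencephalon markers was 945 to 1194 CPM (counts scaled to library size) in FGF2 embryos and 215 to 345 CPM in vehicle embryos, and that of 10 choroid plexus markers 176 to 486 CPM in FGF2 embryos and 22.6 to 25.0 CPM in vehicle embryos. Of the choroid plexus list 6 rose, 1 fell and 3 did not pass; the one that fell was Aqp1 (log2 fold change -1.14, edgeR adjusted p = 0.0492), and without it the list summed to 164 to 480 CPM in FGF2 embryos and 2.76 to 4.87 CPM in vehicle embryos. The ventral sum covers 20 identifiers, as Ebf1 and Gsx2 enter more than once. The Gsx2 identifiers count nearly the same reads, at 17.8 CPM each in FGF2 7. Of the ventral genes Gsx1 was at 0 in all 3 vehicle embryos, and Lhx8 in vehicle 7 and 8. The 12 markers of cortical neurons and progenitors, the labelled tissue, were present in all 6 embryos and summed to 1355 to 1928 CPM in FGF2 embryos and 2510 to 2645 CPM in vehicle embryos. The 12 diencephalon and midbrain markers summed to 138 to 311 CPM in FGF2 embryos and 87.2 to 96.4 CPM in vehicle embryos, and the 10 markers of meninges and mesenchyme to 2262 to 2550 CPM in FGF2 embryos and 3605 to 4147 CPM in vehicle embryos. Most of that last sum came from 3 collagens, Col1a1, Col1a2 and Col3a1, of which the first pair fell. The other 7 summed to 227 to 308 CPM in FGF2 embryos and 234 to 280 CPM in vehicle embryos, and the median log2 fold change of the 10 was 0.05. None of the genes in these lists was at 0 in all 6 embryos. The part of tissue composition in the cadherin results was not tested.

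On the RPKM scale, which allows levels of different genes to be set side by side, N-cadherin was the most abundant of the 40 genes with an RPKM under a unique symbol. Cdh2 averaged 41.8 ± 4.53 RPKM in FGF2 embryos and 48.0 ± 0.590 in vehicle embryos (SD, n = 3 each). Cdh11, a type II cadherin of mesenchymal and neural tissue, followed with 26.9 ± 7.40 RPKM in FGF2 embryos and 25.1 ± 3.17 in vehicle embryos. Celsr2 came next with 18.7 ± 1.44 RPKM in FGF2 embryos and 24.3 ± 0.825 in vehicle embryos, so within the vehicle embryos Cdh11 and Celsr2 differed by less than the SD of Cdh11. Over all 6 embryos, Dchs1 (17.5 RPKM), Celsr1 (13.8), Cdh24 (11.04) and Fat1 (10.9) completed the 7 genes with a mean of at least 10 RPKM. A mean of at least 1 RPKM was reached by 27 genes, and 9 genes were below 0.2 RPKM.

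**Figure D2:**
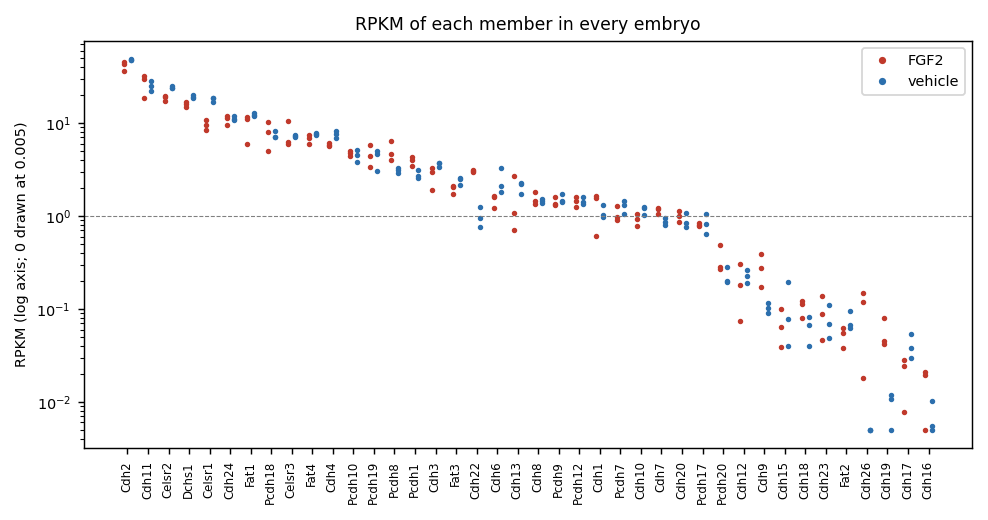
RPKM of 40 cadherin and protocadherin genes in each of the 3 FGF2 and 3 vehicle embryos, on a log axis, ordered by mean over the 6 embryos, with each point 1 embryo and values of 0 drawn at 0.005. Levels ran from 44.9 RPKM for Cdh2 down to below 0.2 RPKM, and the dashed line marks 1 RPKM.

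The Celsr genes encode the vertebrate counterparts of the fly polarity cadherin Flamingo. Celsr1, which organises planar polarity in epithelia and is expressed in neural progenitors, lies on chromosome 15 (85729188 to 85864207, NCBIM37). It had 90.6, 114 and 106 CPM in FGF2 embryos 6, 7 and 8, against 209, 211 and 187 CPM in vehicle embryos 7, 8 and 9. All 3 FGF2 embryos lay well below all 3 vehicle embryos. Celsr1 fell by 0.96 ± 0.10 (SE) on the log2 scale (edgeR adjusted p = 0.00394), and it averaged 9.54 RPKM in FGF2 embryos and 18.1 RPKM in vehicle embryos. The call held when any 1 embryo was left out, with log2 fold changes of -1.04 to -0.87. With sex as a covariate the log2 fold change was -1.01 at an edgeR adjusted p of 0.103.

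Celsr2, which acts in ependymal cilia and neuronal development, lies on chromosome 3 (108193769 to 108218470, NCBIM37) and overlaps no other gene span, like Celsr1. It had 209, 183 and 211 CPM in FGF2 embryos and 261, 283 and 265 CPM in vehicle embryos. The groups did not overlap, and the gap between them was wider than the range within either. Celsr2 fell by 0.42 ± 0.09 (SE) on the log2 scale (edgeR adjusted p = 0.0436). This call was close to the threshold: it was lost when any 1 embryo other than FGF2 8 was left out (edgeR adjusted p up to 0.203). It was also lost with library totals alone (edgeR adjusted p = 0.0603), in all 3 limma fits on RPKM (adjusted p = 0.0650 to 0.0972) and with sex as a covariate (0.516).

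Celsr3, which guides axon tracts of the forebrain, had 68.2, 64.6 and 119 CPM in FGF2 embryos and 86.0, 84.3 and 81.7 CPM in vehicle embryos. FGF2 6 and 7 were below all vehicle embryos and FGF2 8 above them. The log2 fold change was 0.00 ± 0.22 (SE, edgeR adjusted p = 0.993), and without FGF2 8 it was -0.34 (adjusted p = 0.0106). Whether Celsr1, Celsr2 and Celsr3 differed from each other in their response was not tested. The summed RPKM of the 3 genes was 34.5, 33.6 and 39.3 in FGF2 embryos and 49.8, 51.1 and 48.0 in vehicle embryos.

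**Figure D3:**
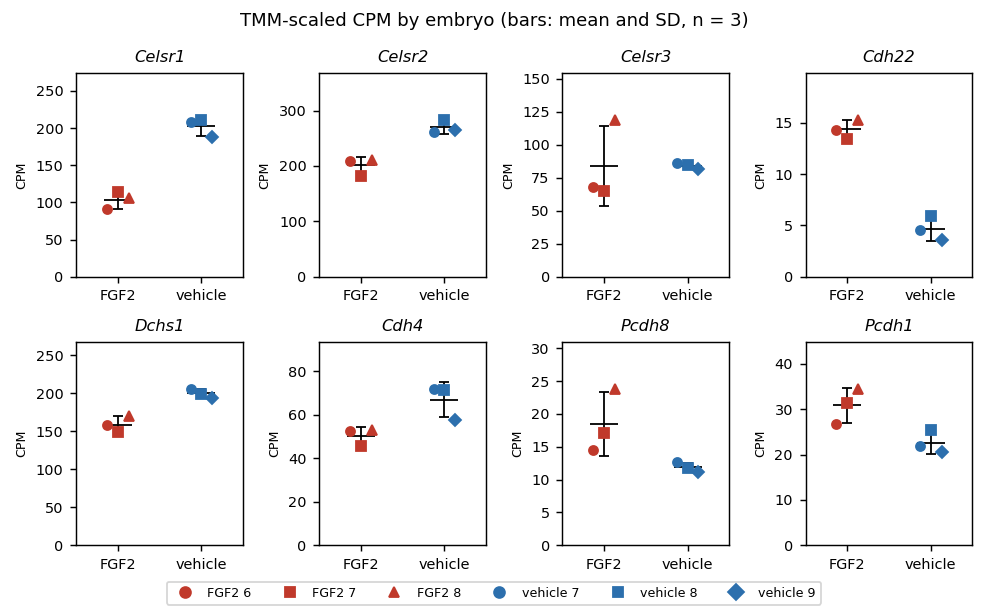
TMM-scaled CPM of 8 cadherin and protocadherin genes in each FGF2 and vehicle embryo, with points for embryos and bars for the mean and SD of 3. Celsr1 and Celsr2 lay lower and Cdh22 higher in all FGF2 embryos and passed the test. The groups also did not overlap in Dchs1, Cdh4, Pcdh8 and Pcdh1, which did not pass, and they overlapped in Celsr3.

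Among 13 planar polarity and Fat-Dachsous partner genes, 1 fell, 0 rose and 12 did not pass, and the median of their log2 fold changes was -0.16. The one that fell was Vangl2, a core polarity membrane protein that acts with Celsr1. Vangl2 had 195, 191 and 204 CPM in FGF2 embryos and 313, 340 and 304 CPM in vehicle embryos. It fell by 0.70 ± 0.08 (SE) on the log2 scale (edgeR adjusted p = 0.00486), kept its call when any 1 embryo was left out, and had a log2 fold change of -0.67 with sex as a covariate (adjusted p = 0.149). Of the 13, the groups did not overlap in 6 that were lower in FGF2 embryos and 1 that was higher, where over all genes the shares were 13.6% and 14.6%. DESeq2 also called Ankrd6, the vertebrate relative of the fly polarity gene diego, as lower, at 35.1 ± 4.15 CPM in FGF2 embryos and 46.1 ± 2.51 in vehicle embryos (SD, n = 3 each), and Prickle2 as higher, at 12.7 ± 1.62 CPM in FGF2 embryos and 8.81 ± 0.519 in vehicle embryos. Of the 13, DESeq2 called 2 lower and 1 higher, where over all genes the shares were 3.1% and 5.96%.

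None of the 5 Fat and Dachsous genes passed, and all 5 had log2 fold changes below 0, between -0.59 and -0.19. Dchs1, the Dachsous ligand whose loss causes misplaced neurons in human and mouse cortex, had 158, 149 and 170 CPM in FGF2 embryos and 206, 199 and 194 CPM in vehicle embryos. The groups did not overlap. Its log2 fold change was -0.33 ± 0.08 (SE, edgeR adjusted p = 0.0711), it was called without FGF2 8 (adjusted p = 0.00829), and DESeq2 called it with all embryos (adjusted p = 0.00645). The span of Dchs1 overlaps part of that of Gm15645, whose count equals 35% of the reads of Dchs1. Reads of the pair cannot be told apart where the spans overlap. In RPKM the log2 ratio was -0.28.

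Fat4, the receptor for Dchs1, had 112, 127 and 100.9 CPM in FGF2 embryos and 129, 133 and 127 CPM in vehicle embryos. FGF2 7 fell within the vehicle range, and the log2 fold change was -0.19 ± 0.09 (SE, edgeR adjusted p = 0.315). Fat1, a regulator of actin and of growth control in epithelia, had 162, 157 and 92.7 CPM in FGF2 embryos and 188, 180 and 175 CPM in vehicle embryos. All FGF2 embryos were below all vehicle embryos, FGF2 8 most of all, and the log2 fold change was -0.40 ± 0.20 (SE, adjusted p = 0.317). Fat3 and Fat2 had log2 fold changes of -0.23 and -0.59 without passing, and Fat2 was at 0.0630 RPKM on average.

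Of the 5 type I classical cadherins none passed, and 4 had log2 fold changes below 0. Cdh2 had 357, 352 and 304 CPM in FGF2 embryos and 394, 400 and 381 CPM in vehicle embryos, with no overlap between the groups. Its log2 fold change was -0.21 ± 0.09 (SE, edgeR adjusted p = 0.25), so the main junctional cadherin of the neuroepithelium was not called. Cdh4 (R-cadherin), which pairs with N-cadherin in brain and retina, had 52.3, 45.4 and 53.1 CPM in FGF2 embryos and 71.9, 71.2 and 57.5 CPM in vehicle embryos. The log2 fold change of Cdh4 was -0.41 ± 0.11 (SE, edgeR adjusted p = 0.0952), and DESeq2 called it (adjusted p = 0.0232).

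E-cadherin (Cdh1), a cadherin of epithelia, had 6.81, 6.64 and 2.58 CPM in FGF2 embryos and 4.19, 5.76 and 4.60 CPM in vehicle embryos. FGF2 6 and 7 were above and FGF2 8 below all vehicle embryos, and the log2 fold change was 0.14 ± 0.35 (SE, edgeR adjusted p = 0.855). P-cadherin (Cdh3) had a mean of 10.9 ± 2.71 CPM in FGF2 embryos and 14.7 ± 0.679 in vehicle embryos (SD, n = 3 each) and did not pass (adjusted p = 0.26). Cdh15, a muscle cadherin, was at 0.0860 RPKM, and its span lies inside the far larger one of Gm20388.

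Cdh22, a type II cadherin of the brain on chromosome 2 (164937007 to 165060353, NCBIM37), was the only one of the 37 called higher. It had 14.3, 13.4 and 15.2 CPM in FGF2 embryos and 4.53, 5.86 and 3.56 CPM in vehicle embryos. In RPKM it was at 2.98, 3.02 and 3.15 in FGF2 embryos and 0.956, 1.26 and 0.755 in vehicle embryos. FGF2 8 did not stand apart here, and the spread within each group was small beside the gap. Cdh22 rose by 1.62 ± 0.19 (SE) on the log2 scale (edgeR adjusted p = 0.00524), and the call held when any 1 embryo was left out (adjusted p up to 0.0382). With sex as a covariate the log2 fold change was 1.66 (adjusted p = 0.161). Gm14397 lies within the span and its count equals 1.56% of the reads of Cdh22.

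The other type II cadherins did not pass. Cdh9, a synaptic cadherin in mouse, was scarce, with 0.701, 1.09 and 1.41 CPM in FGF2 embryos and 0.376, 0.374 and 0.444 CPM in vehicle embryos. The groups did not overlap, and the log2 fold change was 1.41 ± 0.34 (SE, edgeR adjusted p = 0.0677). DESeq2 called Cdh9 (adjusted p = 0.013), and so did voom with sample quality weights (0.042).

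Cdh6, a cadherin that marks the border between striatum and cortex and part of the early cortical plate in mouse, had 23.3, 16.9 and 27.0 CPM in FGF2 embryos and 40.2, 30.8 and 20.0 CPM in vehicle embryos. The groups overlapped, and vehicle 9 was lower than FGF2 6 and 8. The log2 fold change was -0.44 ± 0.26 (SE, edgeR adjusted p = 0.413). In RPKM the groups of Cdh6 did not overlap, at 1.60, 1.65 and 1.20 in FGF2 embryos and 3.27, 2.11 and 1.79 in vehicle embryos.

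Cdh8, expressed in frontal cortex and striatum in mouse, had 20.6, 17.4 and 36.2 CPM in FGF2 embryos and 24.8, 25.3 and 21.4 CPM in vehicle embryos. FGF2 8 was above all vehicle embryos and FGF2 6 and 7 below them, and the log2 fold change was 0.05 ± 0.26 (SE, edgeR adjusted p = 0.936). Gm15679 and Gm15680, which overlap the span of Cdh8, had counts equal to 17.9% and 20.3% of its reads. Only part of each lies within that span, so how many of the Cdh8 reads belong to them cannot be told. Cdh11 had 159, 135 and 109 CPM in FGF2 embryos and 130, 118 and 138 CPM in vehicle embryos, with a log2 fold change of 0.06 ± 0.14 (SE, adjusted p = 0.832).

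Cdh24 had 42.1, 33.1 and 45.2 CPM in FGF2 embryos and 43.6, 43.2 and 37.4 CPM in vehicle embryos, with a log2 fold change of -0.05 ± 0.13 (SE, edgeR adjusted p = 0.876). Its span shares reads with CT009512.1, whose count equals 14.4% of its own, and overlaps Gm17606, whose count equals 458% of its own. Only part of Gm17606 lies within the span of Cdh24, so how many of the Cdh24 reads belong to it cannot be told. Cdh7, Cdh10, Cdh12 and Cdh20 had log2 fold changes of 0.28, -0.26, -0.18 and 0.08 without passing. Over the 11 tested type II genes 6 log2 fold changes were above 0 and 5 below, with a median of 0.05.

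Of the delta-1 protocadherins none passed. Pcdh1, an adhesion protein of epithelia, had 26.8, 31.4 and 34.5 CPM in FGF2 embryos and 21.9, 25.4 and 20.6 CPM in vehicle embryos. The groups did not overlap, although FGF2 6 and vehicle 8 were close. The log2 fold change was 0.45 ± 0.13 (SE, edgeR adjusted p = 0.106), and DESeq2 called it (adjusted p = 0.0352). Pcdh9 had 46.0, 37.2 and 79.4 CPM in FGF2 embryos and 64.0, 64.6 and 52.1 CPM in vehicle embryos, with FGF2 8 above and FGF2 6 and 7 below all vehicle embryos (log2 fold change -0.15 ± 0.26, adjusted p = 0.789). Pcdh7 had 20.4, 14.3 and 25.4 CPM in FGF2 embryos and 27.8, 29.7 and 25.9 CPM in vehicle embryos, with a log2 fold change of -0.47 ± 0.19 (SE, adjusted p = 0.234).

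The 5 delta-2 protocadherins all had log2 fold changes above 0, from 0.05 to 0.64, and none passed. Pcdh8, whose product lowers cadherin adhesion at synapses in rat neurons, had 14.5, 17.1 and 23.8 CPM in FGF2 embryos and 12.6, 11.8 and 11.1 CPM in vehicle embryos. The groups did not overlap and FGF2 8 was the highest. The log2 fold change was 0.64 ± 0.18 (SE, edgeR adjusted p = 0.111), and DESeq2 called it (adjusted p = 0.02).

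Pcdh10, needed for axon growth through the ventral telencephalon in mouse, had 48.6, 53.2 and 58.2 CPM in FGF2 embryos and 57.7, 51.4 and 42.7 CPM in vehicle embryos, with a log2 fold change of 0.08 ± 0.12 (SE, edgeR adjusted p = 0.781). Pcdh17, which acts in collective axon extension in mouse, had 10.1, 9.67 and 10.8 CPM in FGF2 embryos and 7.95, 9.90 and 11.05 CPM in vehicle embryos (log2 fold change 0.08 ± 0.15, adjusted p = 0.807). The values of both genes overlapped between the groups. Pcdh18 had 54.9, 42.4 and 27.9 CPM in FGF2 embryos and 39.1, 39.1 and 42.4 CPM in vehicle embryos, so the 3 FGF2 embryos spanned the vehicle values on both sides (log2 fold change 0.05 ± 0.22, adjusted p = 0.913).

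Pcdh19, an X-linked gene tied to epilepsy in girls and women, had 68.8, 44.9 and 44.6 CPM in FGF2 embryos and 33.0, 65.0 and 52.2 CPM in vehicle embryos. Vehicle 7, the vehicle embryo with Y-linked reads, was the lowest of all 6 and vehicle 8 and 9 were higher. The log2 fold change was 0.08 ± 0.26 (SE, edgeR adjusted p = 0.901), and with sex as a covariate it was 0.68 (adjusted p = 0.587). None of the other identifiers chosen here lies on the X chromosome.

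The remaining Cdh and Pcdh genes did not pass. T-cadherin (Cdh13), which is anchored to the membrane by a lipid and lacks the catenin-binding tail, had 11.7, 16.01 and 45.8 CPM in FGF2 embryos and 30.1, 39.9 and 33.3 CPM in vehicle embryos. FGF2 6 and 7 were below and FGF2 8 above every vehicle embryo, and the log2 fold change was -0.49 ± 0.49 (SE, edgeR adjusted p = 0.636). Cdh23, a tip-link cadherin of hair cells, had 5.98, 8.27 and 8.74 CPM in FGF2 embryos and 4.40, 4.77 and 6.06 CPM in vehicle embryos (log2 fold change 0.59 ± 0.20, adjusted p = 0.166). The count of 4632428N05Rik, nested in Cdh23, equals 58.3% of its reads. Pcdh12, a protocadherin of endothelium, had 7.76, 6.77 and 8.60 CPM in FGF2 embryos and 7.59, 8.62 and 7.75 CPM in vehicle embryos, with overlapping groups (adjusted p = 0.874). Pcdh20 had 1.39, 1.31 and 2.67 CPM in FGF2 embryos and 1.01, 1.02 and 1.46 CPM in vehicle embryos (log2 fold change 0.62 ± 0.34, adjusted p = 0.371).

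For Cdh18 and Pcdh15, a type II cadherin and a tip-link protocadherin of hair cells, most counted reads lay over nested genes. Cdh18 had 262 to 357 CPM in FGF2 embryos and 315 to 412 CPM in vehicle embryos, yet only 0.0794 to 0.121 RPKM in FGF2 embryos and 0.0396 to 0.0811 RPKM in vehicle embryos. The count of the nested gene Gm5803 equals 94.6% of the reads of Cdh18. Of the bases in the span of Cdh18, 7.00% to 39.1% were covered in FGF2 embryos and 1.85% to 15.2% in vehicle embryos, against 64.5% to 99.8% in FGF2 embryos and 99.8% to 100.0% in vehicle embryos for Celsr1. The larger of the Pcdh15 spans had 185 to 205 CPM in FGF2 embryos and 177 to 197 CPM in vehicle embryos. The counts of Gm5778 and of RP23-121B23.1.1, both nested in it, equal 63.4% and 33.6% of these reads, and neither RPKM row under the Pcdh15 symbol exceeded 0.254. In all, 21 of the 42 identifiers overlap another gene span.

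The 5 identifiers below the low-count filter were Cdh16, Cdh17, Cdh19, Cdh26 and the shorter span of Pcdh15, whose 10 reads lay in FGF2 embryos. Cdh26, a cadherin of epithelia, had 4, 32 and 38 reads in FGF2 6, 7 and 8 and 2 reads over the vehicle embryos. The ratio of the summed reads, 74 against 2, was 32.2 with a 95% exact counting interval of 8.61 to 271. The 2 vehicle reads lay in vehicle 9, where all counts are even, so they cannot be read as separate reads and the interval is too narrow. DESeq2, which kept Cdh26, called it at an adjusted p of 0.00972. Cdh26 entered that test only through the FGF2 embryos, where it was high, so the call adds no separate support. Cdh19, a cadherin of the Schwann cell lineage, had 38 reads in FGF2 embryos and 7 in vehicle embryos, a ratio of 4.73 (2.09 to 12.5). Cdh16, a kidney cadherin, had 15 reads in FGF2 embryos and 4 in vehicle embryos (ratio 3.26, 1.04 to 13.51), and Cdh17, an intestinal cadherin, 20 in FGF2 embryos and 34 in vehicle embryos (ratio 0.512, 0.279 to 0.916). Vehicle 9 supplied 2 of the 4 vehicle reads of Cdh16 and 10 of the 34 of Cdh17. The intervals of those genes are thus too narrow as well. All the intervals cover counting error only.

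FGF2 8 stood apart from FGF2 6 and 7 in many of the tested genes. Its CPM was at least 1.5 times the mean of FGF2 6 and 7 in 10, namely Celsr3, Pcdh9, Pcdh8, Cdh13, Pcdh20, Cdh10, Cdh12, Cdh20, Cdh8 and Cdh9. It was lower than that mean by the same factor in 4, Fat1, Pcdh18, Cdh1 and Cdh3. The largest ratio was that of Cdh13, at 3.31, and the smallest that of Cdh1, at 0.384. The coefficient of variation of the 37 had a median of 22.9% over the FGF2 embryos and 11% over the vehicle embryos, and it was larger among the FGF2 embryos in 27. The same quantities were not determined over all genes, so they are not shown to be particular to the cadherin genes. Calls over all genes went from 799 to 1943 when FGF2 8 was left out. In the summed markers FGF2 8 was the highest of the FGF2 embryos for cortical cells (1928 CPM) and ventral telencephalon (1194 CPM). It was the lowest of them for meninges and mesenchyme (2262 CPM). For choroid plexus FGF2 8 was the highest of them (486 CPM) through Ttr alone, and without Ttr it was the lowest. Of the other choroid plexus genes, Kcnj13, Folr1 and Htr2c were highest in FGF2 8 among the FGF2 embryos. Otx2, Aqp1 and Prlr were lowest there. The part of these differences in the results of the cadherins was not tested.

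**Figure D4:**
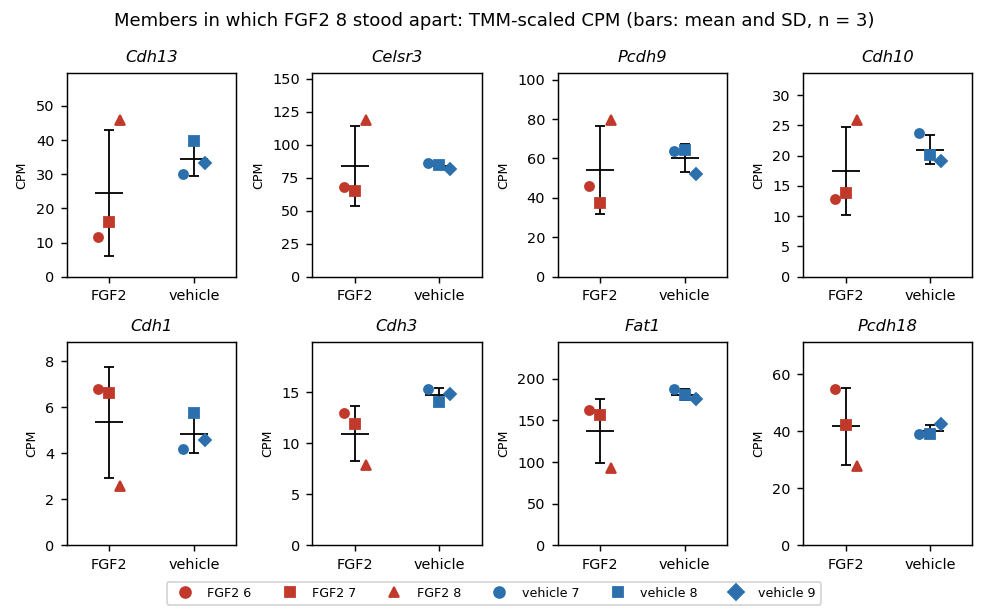
TMM-scaled CPM of 8 genes in each FGF2 and vehicle embryo, chosen after their values were seen, with bars for the mean and SD of 3. In the upper row FGF2 8 was at least 1.5 times the mean of FGF2 6 and 7, as in Cdh13 at 45.8 CPM beside 11.7 and 16.01, and in the lower row it was lower by at least that factor, as in Cdh1 at 2.58 CPM beside 6.81 and 6.64.

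When FGF2 8 was left out, 8 of 38 cadherin genes tested were called (21.1%, against 8.68% of all genes in that fit). Of these 1 was higher (2.63%, against 4.31%) and 7 were lower (18.4%, against 4.38%). Besides Cdh22, Celsr1 and Celsr2, these were Cdh10, Cdh13, Celsr3, Dchs1 and Pcdh7. In that fit Cdh13 had a log2 fold change of -1.31 (edgeR adjusted p = 0.00755), Cdh10 one of -0.66 (adjusted p = 0.0139) and Pcdh7 one of -0.68 (adjusted p = 0.0379). With all embryos and voom with sample quality weights, 8 of 37 were called (21.6%, against 10.3% of all genes). These were 2 higher, Cdh22 and Cdh9 (5.41%, against 5.79%), and 6 lower, Celsr1, Celsr2, Cdh4, Cdh10, Dchs1 and Pcdh7 (16.2%, against 4.49%). DESeq2 called 9 of the 40 to which it gave an adjusted p (22.5%, against 9.06% of all genes). These were 5 higher, Cdh22, Cdh26, Cdh9, Pcdh1 and Pcdh8 (12.5%, against 5.96%), and 4 lower, Celsr1, Celsr2, Cdh4 and Dchs1 (10%, against 3.1%). The shares called in all and called higher include Cdh26, which entered only through the FGF2 embryos and adds no separate support. The share called was thus larger in these fits over all genes as well. The calls of Celsr1 and Cdh22 did not rest on FGF2 8, as their CPM in FGF2 8 was 1.04 and 1.10 times the mean of FGF2 6 and 7.

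The counts take in introns while the RPKM values fit an exonic gene model: the vehicle mean of Celsr1 in CPM divided by that in RPKM corresponds to a length of 11.2 kb, against a span of 135 kb. For each embryo, the log2 ratio of span CPM to RPKM was centred on its median over genes and set relative to its mean over the vehicle embryos. Only genes that reached a set RPKM minimum in all 6 embryos entered, which left out the long Cdh12, Cdh18 and Cdh23. Over 6 cadherin genes with spans of 300 kb or more (Cdh4, Cdh8, Cdh13, Fat3, Pcdh7 and Pcdh9), the median was -0.02 in FGF2 6, -0.18 in FGF2 7 and 0.26 in FGF2 8, against 0.07, 0.11 and -0.18 in vehicle 7, 8 and 9. Over all 324 genes of that length above the same minimum it was 0.03, -0.06 and 0.11 in FGF2 embryos and 0.03, 0.05 and -0.08 in vehicle embryos. For 7 cadherin genes under 30 kb it stayed between -0.02 and 0.01 in all 6 embryos. The embryos thus differed in this ratio for long genes, within both groups.

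Pcdh9, with a span of 873 kb, was 1.91 times as high in FGF2 8 as in the mean of FGF2 6 and 7 by CPM and 0.918 times by RPKM. Pcdh7 was 1.47 times as high by CPM and 0.795 times by RPKM, and Cdh6, with a span of 139 kb, 1.35 and 0.739 times. For Pcdh7 and Cdh6 the span counts placed FGF2 8 above FGF2 6 and 7, and the RPKM placed it below them. For Pcdh9 FGF2 8 was above FGF2 6 and 7 by CPM, but by RPKM it lay between them. By contrast Cdh13, with a span of 1041 kb, was 3.31 times as high by CPM and 3.08 times by RPKM, Celsr3 1.79 and 1.73 times, and Fat1 0.581 and 0.531 times. For the 3 called genes, of which Celsr2 was not called in the RPKM fits, the log2 ratio of RPKM means was -0.92 for Celsr1, -0.38 for Celsr2 and 1.62 for Cdh22, beside edgeR log2 fold changes of -0.96, -0.42 and 1.62 from the span counts.

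**Figure D5:**
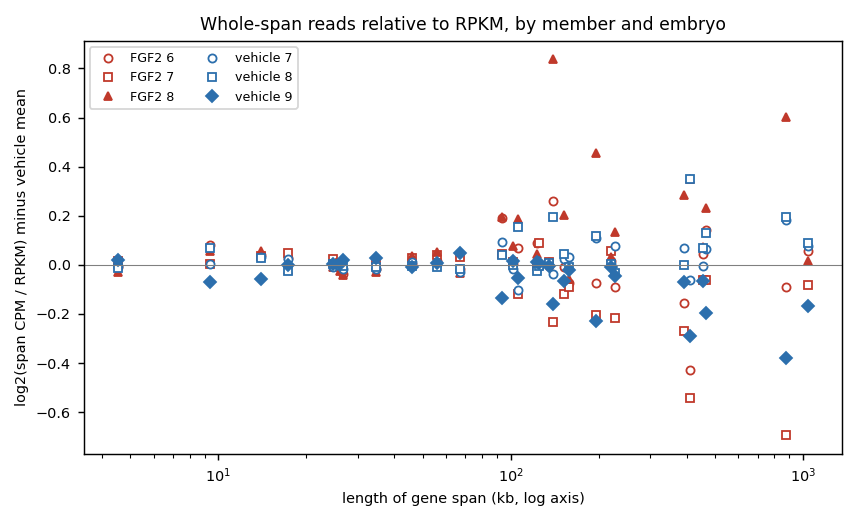
Log2 ratio of whole-span CPM to RPKM, relative to its mean over the vehicle embryos, against the length of the gene span in kb on a log axis, for 29 cadherin genes and all 6 embryos. The 29 genes reached a set RPKM minimum in all 6 embryos, and ratios were centred on each embryo's median over genes. Points scatter little for short genes and widely for long ones, where FGF2 8 tends to lie high and FGF2 7 and vehicle 9 low, as for Pcdh9 at 0.60 in FGF2 8, -0.69 in FGF2 7 and -0.38 in vehicle 9.

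Of the intracellular partners, 17 catenin and junction genes were tested and 0 rose or fell by edgeR's adjusted p, with a median log2 fold change of -0.13. An unadjusted p under 0.05 was found for 5 of the 17, against 19.3% of all genes. DESeq2 called 2 (Ctnna3 and Ctnnd1), against 9.06% of all genes. Voom with quality weights called 3 (Ctnnd1, Ctnnd2 and Numbl), against 10.3% of all genes. Beta-catenin (Ctnnb1), which binds the tail of classical cadherins, averaged 821 ± 111 CPM in FGF2 embryos and 902 ± 27.9 in vehicle embryos (SD, n = 3 each). p120-catenin (Ctnnd1), which keeps cadherins at the membrane, averaged 156 ± 9.81 CPM in FGF2 embryos and 191 ± 7.21 in vehicle embryos, with no overlap between the groups (edgeR adjusted p = 0.1). Both genes were named after their values were seen.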

How the data were processed

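RNA-seq was deposited for 6 libraries. The authors' deposited count files give, per gene span (introns included), whole counts of overlapping alignments, and the deposited fraction of the span covered. The deposited RPKM files give RPKM per symbol, by a tool the labels do not name. The submitters' processing notes name bedtools 2.12.0, TopHat2 2.0.9, CASAVA 1.8 and Bowtie2 2.1.0.0, and the genome build NCBIM37 (mm9). Whether counting used strand was not stated in the labels, so genes cannot be told from antisense or nested neighbours.

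The quasi-likelihood test of edgeR 4.0.16 (R 4.3.3, low counts removed by filterByExpr, TMM, robust fit, no covariate) was run on the deposited counts, with Benjamini-Hochberg adjustment over 21983 genes. Standard errors come from the coefficient and its F statistic. CPM are TMM-scaled, and SDs are over 3 embryos. P-values measure the spread between these embryos, and 3 against 3 allow an exact permutation p no lower than 0.1, so they rest on the model fitted across genes. The 19 alternatives included DESeq2 1.42.0, limma 3.58.1 (voom with quality weights, and log2(RPKM + 1) and log2(RPKM + 0.1) at a minimum of 1 RPKM in 3 libraries), sex as a covariate and leaving out each embryo. The scripts were tested on simulated counts.

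The genes and lists were chosen with earlier results of these data known. Values in every embryo are given for called genes, the highest 2 per family by mean RPKM, and a set list. Others were added after their values were seen. Coordinates are 1-based, after the deposited starts were raised by 1, and RPKM was joined by symbols that occur once. No sequence is shown.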

Additional observations from a re-analysis of the deposited data

How the results depend on the processing

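Calls over all genes, 799 with all embryos in edgeR, numbered 2065 with DESeq2, 2259 with voom and quality weights, 488 among genes overlapping no other span, 432, 431 and 271 with limma on log2(RPKM + 1), log2(RPKM + 0.1) and log2(RPKM + 1) without a filter, 5 with sex as a covariate and 218 to 1943 when 1 embryo was left out. Cadherin genes called higher, 1 in the fit reported, numbered 5 with DESeq2, 2 with voom, 0 with sex, 0 among non-overlapping genes, where Cdh22 is not included, and 1 to 2 without 1 embryo. Those called lower, 2 in the fit reported, numbered 4 with DESeq2, 6 with voom, 1 with library totals alone, 1 in each of the 3 RPKM fits, 1 with the replicate block, 0 with sex and 1 to 7 without 1 embryo. Where 1 was called lower it was Celsr1, and the call lost was that of Celsr2, which was called in 8 of 19 alternatives. Without FGF2 6 the 2 called higher were Cdh22 and Cdh26. Cdh26 entered that fit only through the FGF2 embryos, so its call adds no separate support. The partner and comparison lists had 3 of 75 identifiers called, against 3.63% of all genes. They had 8 with DESeq2, which kept more of their identifiers, 9 with voom, 0 with sex and 3 to 8 without 1 embryo. Over all genes the shares called were 9.06% with DESeq2 and 10.3% with voom. Embryo numbers 7 and 8 occur in both groups, but same-numbered embryos did not deviate together (correlations of -0.04 and -0.03). With the replicate block, 703 genes were called in all. Numbers 6 and 9 occur only once, so the FGF2 effect in that fit rests on embryos 7 and 8 of each group alone.

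Of the 37 tested genes 16, none called in the fit reported, turned in direction in some alternatives. With the replicate block the log2 fold change was -0.24 for Cdh1, -0.025 for Cdh11, 0.040 for Celsr3, -0.18 for Pcdh18 and -0.050 for Pcdh19. With sex it was -0.0083 for Cdh8, 0.023 for Cdh18, -0.25 for Cdh20, -0.11 for Pcdh10, 0.022 for Pcdh12 and -0.010 for Pcdh15, and with voom -0.29 for Cdh8, 0.028 for Cdh18, -0.14 for Cdh20 and -0.020 for Pcdh10. Celsr3 was at 0.012 with a minimum of 1 CPM, 0.031 with library totals, 0.019 with RPKM plus 0.1 and 0.022 with RPKM plus 1, filtered or not, and with RPKM plus 1 unfiltered Pcdh17 was at -0.010 and Cdh18 at 0.056. Without 1 embryo the ranges were -0.067 to 0.47 for Cdh1, -0.073 to 0.19 for Cdh11, -0.85 to 0.12 for Cdh12, -0.94 to 0.36 for Cdh15, -0.22 to 0.0035 for Cdh18, -0.17 to 0.27 for Cdh20, -0.14 to 0.070 for Cdh24, -0.33 to 0.24 for Cdh8, -0.34 to 0.14 for Celsr3, -0.035 to 0.17 for Pcdh10, -0.14 to 0.030 for Pcdh12, -0.046 to 0.19 for Pcdh17, -0.19 to 0.27 for Pcdh18, -0.16 to 0.31 for Pcdh19 and -0.53 to 0.049 for Pcdh9. The cause of these changes was not tested. Library totals shift the median of all genes to 0.05.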

Other observations

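Further groups of the cadherin superfamily and a list of downstream genes were read from the same fit. Of 24 clustered protocadherins tested, mostly of the beta cluster, whose members are alike in sequence so that the split of reads between them is uncertain, 0 rose or fell by edgeR's adjusted p, and the median of their log2 fold changes was -0.10. An unadjusted p under 0.05 was found for 2 of them, against 19.3% of all genes, and neither DESeq2 nor voom with quality weights called any.

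Of 13 other cadherin superfamily identifiers tested, 1 rose, 0 fell and 12 did not pass, and the median of their log2 fold changes was 0.30. Cdhr4 enters more than once among the 13. The one that rose was Ret, the receptor tyrosine kinase for GDNF, which carries cadherin-like repeats. Ret had 2.07, 1.62 and 1.79 CPM in FGF2 embryos and 0.294, 0.180 and 0.349 CPM in vehicle embryos, and it rose by 2.73 ± 0.31 (SE) on the log2 scale (edgeR adjusted p = 0.0048). The call held when any 1 embryo was left out, and with sex as a covariate the log2 fold change was 2.63 (adjusted p = 0.182). DESeq2 called Ret too, and Clstn1 as lower, at 193 ± 6.05 CPM in FGF2 embryos and 280 ± 72.3 in vehicle embryos (SD, n = 3 each). It kept 20 identifiers of this list. Pcdh11x, a delta-1 protocadherin whose symbol falls outside the rule used for the genes above, had 8.99, 7.95 and 11.8 CPM in FGF2 embryos and 7.52, 6.49 and 5.90 CPM in vehicle embryos, with no overlap and an edgeR adjusted p of 0.172. VE-cadherin (Cdh5), the junctional cadherin of endothelium, averaged 49.9 ± 1.46 CPM in FGF2 embryos and 50.0 ± 3.12 in vehicle embryos (SD, n = 3 each), beside endothelium and pericyte markers that summed to 257 to 304 CPM in FGF2 embryos and 224 to 258 CPM in vehicle embryos.

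Of 8 Wnt and Hippo-Yap target genes tested, 1 rose, 0 fell and 7 did not pass. The one that rose was Sp5, a Wnt target, with 9.71, 11.997 and 7.11 CPM in FGF2 embryos and 2.03, 1.74 and 1.90 CPM in vehicle embryos (edgeR adjusted p = 0.00244). The 10 skin and muscle markers summed to 60.8 to 94.1 CPM in FGF2 embryos and 75.7 to 103 CPM in vehicle embryos, and the 10 red blood cell and microglia markers to 1406 to 2258 CPM in FGF2 embryos and 1056 to 1551 CPM in vehicle embryos, most of it globin. The 5 microglia genes among these summed to 76.6 to 89.4 CPM in FGF2 embryos and 51.8 to 62.6 CPM in vehicle embryos, and each was higher in FGF2 embryos without overlap, where 14.6% of all genes were. Only Tyrobp of the 5 passed (edgeR adjusted p = 0.0223). The part of these cells in the cadherin results was not tested.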
